A study of Homo sapiens with 6 samples.

Results

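The insulin-like growth factor (IGF) system was examined in U87-MG cells through 9 genes, namely the ligand IGF2, the receptors IGF1R and IGF2R, and the binding proteins IGFBP2, IGFBP3, IGFBP4, IGFBP5, IGFBP6 and IGFBP7. They were taken by name from a deposited table of 61731 genes and loci, and all 9 were present. Of the 9, 6 reached a mean of 1 TPM (the unit of transcript abundance explained below), the level set for testing, which 13722 genes of the table reached. U87-MG is a long-established line of human glioblastoma cells. RNA from 3 negative control (NC) libraries and 3 libraries labelled as CHRM3 knockdown (KD) was sequenced, and the question was which transcripts differ when this muscarinic acetylcholine receptor is reduced. According to the methods of the study the knockdown was made with lentivirus, and the text does not say which of its KD sequences these cells carried. No source used here says that separate cultures gave rise to the libraries of a group, so the p-values measure only the spread between these libraries, which may be technical.

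IGF ligands act through IGF1R, a receptor tyrosine kinase that recruits adaptor proteins and feeds the AKT and ERK pathways. IGF2R carries no kinase. It takes IGF2 up from outside the cell and also sorts enzymes tagged with mannose 6-phosphate to lysosomes. The IGF binding proteins are secreted, hold the ligand away from IGF1R or deliver it, and are cut by proteases that set it free. Several of them, IGFBP2, IGFBP3 and IGFBP5 among them, have been studied in glioma, where IGF1R signalling is known to support growth.

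TPM is the share of each library's transcripts that come from a gene, corrected for transcript length, so the levels of different genes can be set side by side. It keeps no read depth, which is therefore unknown here. The targeted gene, CHRM3, was listed at 0.02, 0.09 and 0.13 TPM in NC replicates 1, 2 and 3 and at 0.13, 0.01 and 0.02 TPM in KD replicates 1, 2 and 3. The groups overlapped (exact two-sided permutation test, p = 0.80, where 3 libraries against 3 allow no p below 0.10). The knockdown was therefore not detectable at these TPM levels, and each library's group rests on its label. From its own measurements of CHRM3 outside the sequencing, the paper reports an efficient knockdown in U87-MG cells. Of the 9 glioma and neural markers, VIM and CD44 were abundant in every library. NES lay between 1.98 and 4.01 TPM and GFAP between 0.87 and 1.46 TPM. SOX2, S100B and OLIG2 stayed under 1 TPM in every library, and SOX10 and AQP4 were listed at 0 throughout. VIM and NES were higher in KD and CD44 was lower, each past the limma test described below. The 5 leukocyte, 4 endothelial and 3 erythroid markers stayed under 1 TPM in every library, with leukocyte sums of at most 0.16 TPM in NC and 0.29 TPM in KD. Of the 3 neuron markers, SNAP25 rose from 9.74 ± 0.841 to 13.8 ± 0.346 TPM (SD, n = 3 each), SYT1 rose from 0.22 ± 0.0361 to 0.473 ± 0.0551 TPM (SD, n = 3 each; limma adjusted p = 0.0359 in a fit with no lower limit on TPM), and RBFOX3 did not exceed 0.15 TPM. The part of such a shift in the results was not tested.

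Promoter sequences are given first for the 4 genes on which the results below turn, the binding proteins IGFBP3 and IGFBP4, which were higher in KD, and IGFBP6 and IGF2R, which were lower. Each window runs from 250 bases before to 50 bases after a start annotated in RefSeq (build GRCh38.p14) and was taken from there, written 5′ to 3′ on the strand of the gene. Capitals mark the TATA-type hexamers TATAAA and TATATA and the E-box CACGTG, searched on both strands. The RefSeq starts are not the outer ends of the GENCODE 29 genes given further on. They lie 602 bases inside the gene for IGFBP3 and 231 bases inside for IGFBP6, and 11 and 17 bases before it for IGFBP4 and IGF2R. The windows of IGFBP3 (minus strand, chr7:45921223-45921522), IGFBP4 (plus strand, chr17:40443200-40443499), IGFBP6 (plus strand, chr12:53097417-53097716) and IGF2R (plus strand, chr6:159968832-159969131) read:
IGFBP3: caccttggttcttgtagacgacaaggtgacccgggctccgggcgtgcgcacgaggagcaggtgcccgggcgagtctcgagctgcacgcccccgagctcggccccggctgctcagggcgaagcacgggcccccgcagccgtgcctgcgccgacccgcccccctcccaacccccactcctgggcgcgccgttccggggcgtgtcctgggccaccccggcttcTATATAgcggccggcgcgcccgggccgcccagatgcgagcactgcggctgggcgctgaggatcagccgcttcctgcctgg
IGFBP4: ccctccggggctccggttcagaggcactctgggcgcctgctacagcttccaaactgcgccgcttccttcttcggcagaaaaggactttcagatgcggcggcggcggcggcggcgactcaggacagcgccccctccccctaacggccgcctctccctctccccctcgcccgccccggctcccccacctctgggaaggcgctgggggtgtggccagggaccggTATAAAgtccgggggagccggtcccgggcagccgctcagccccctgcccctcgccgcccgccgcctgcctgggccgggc
IGFBP6: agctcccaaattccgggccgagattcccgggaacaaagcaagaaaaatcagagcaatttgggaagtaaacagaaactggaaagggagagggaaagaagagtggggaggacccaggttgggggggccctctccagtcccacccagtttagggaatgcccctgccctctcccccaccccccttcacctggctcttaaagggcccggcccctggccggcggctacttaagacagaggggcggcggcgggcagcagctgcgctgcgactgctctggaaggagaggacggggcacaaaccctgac
IGF2R: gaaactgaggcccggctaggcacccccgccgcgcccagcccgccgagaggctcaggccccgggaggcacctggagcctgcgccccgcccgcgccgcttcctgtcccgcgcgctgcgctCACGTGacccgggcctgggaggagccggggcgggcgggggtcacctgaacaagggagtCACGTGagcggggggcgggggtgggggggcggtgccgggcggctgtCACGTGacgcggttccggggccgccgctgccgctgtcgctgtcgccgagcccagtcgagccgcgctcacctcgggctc

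IGFBP3 held TATATA from 30 bases before its RefSeq start, and IGFBP4 held TATAAA from 29 bases before its RefSeq start. TATATA occurred in 3.99% and TATAAA in 11.5% of the 35116 RefSeq promoter windows of this length. The IGF2R window held neither, but contained CACGTG at 3 places, from 132, 74 and 28 bases before the start. At least 1 copy of CACGTG was found in 7.26% of all windows, and at least 3 copies in 0.0940%. None of the 3 motifs was found in the IGFBP6 window, nor in those of IGFBP5, IGF1R and IGFBP2. The GC box GGGCGG, which 45.0% of all windows hold, was present in all 4 printed windows, at 6 places in IGF2R, 2 each in IGFBP3 and IGFBP4 and 1 in IGFBP6. The AP-1 site TGACTCA (4.95% of all windows) and the letters CCAAT (34.6%) were not found in the 4 windows. These matches describe letters only, and no binding was measured.

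Differences between KD and NC were tested on log2(TPM + 1) with limma and Benjamini-Hochberg adjustment over the 13722 tested genes. Every adjusted p below comes from limma, and from this fit unless another fit, a left-out library or another setting is named. Of the 6 tested members, 3 rose past an adjusted p of 0.05 (IGFBP3, IGFBP4 and IGFBP7) and 2 fell (IGF2R and IGFBP6), whereas IGF1R did not pass. Over all tested genes 12.1% rose and 24.0% fell by the same rule, 36.1% in either direction. The KD and NC values did not overlap for any of the 6 members, against 50.2% of all tested genes. The median log2 difference was -0.05 over the 6 members and -0.06 over all tested genes. In bulk RNA, fewer cells that express a gene and less RNA per cell cannot be told apart.

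**Figure D1:**
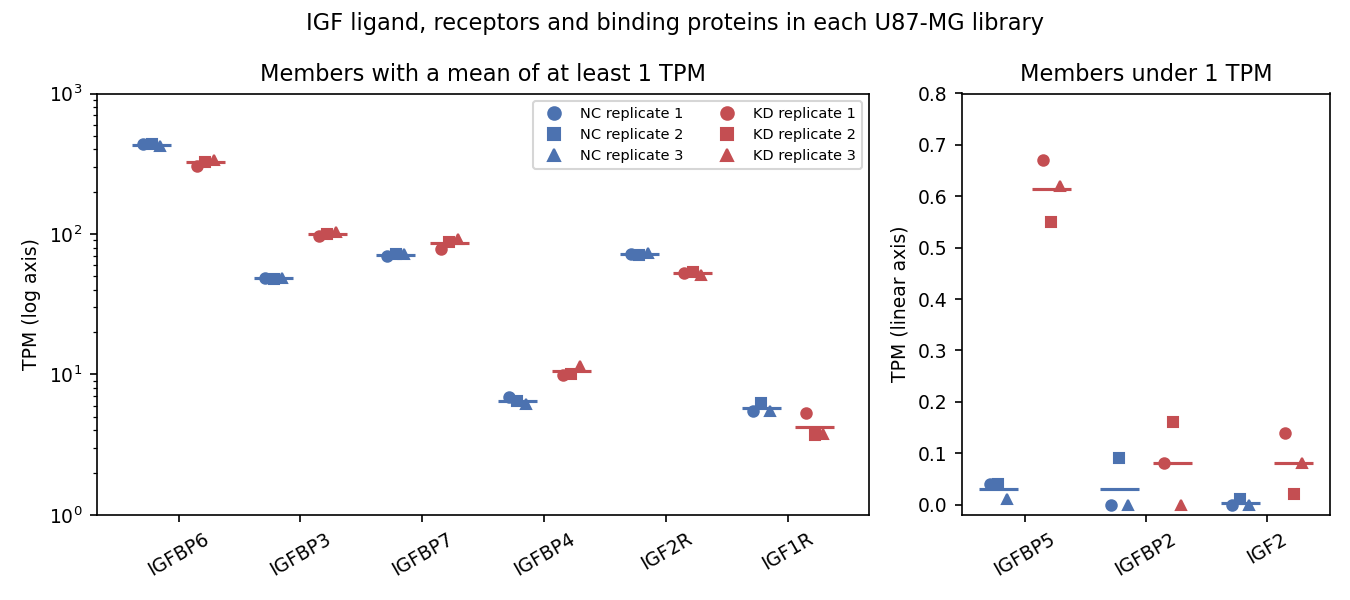
TPM of the 9 genes in each library, on a log axis for the 6 members that were tested (left) and on a linear axis for the 3 members under 1 TPM (right). Points are libraries, symbols their replicate numbers, and horizontal lines the group means (n = 3). IGFBP3 lies between 47.89 and 48.94 TPM in NC (blue) and between 97.03 and 102.65 TPM in KD (red), and IGFBP6 stays the most abundant member in both groups.

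The ligand was nearly absent. IGF2 (ENSG00000167244, chromosome 11 from 2129112 to 2149603, minus strand) is the fetal growth factor that binds both receptors. It was listed at 0, 0.01 and 0 TPM in NC replicates 1, 2 and 3 and at 0.14, 0.02 and 0.08 TPM in KD replicates 1, 2 and 3. All KD libraries were above all NC libraries, KD replicate 2 by the rounding step of 0.01 TPM and the others by more. In a limma fit with no lower limit on TPM, over 30412 genes, the difference did not pass (adjusted p = 0.225). The overlapping genes INS-IGF2 and IGF2-AS and a further Ensembl gene that GENCODE 29 also names IGF2 were listed at 0 TPM in all 6 libraries, as were IGF1, the other ligand of IGF1R, and INS, which encodes insulin. AC132217.1, a non-coding gene that overlaps IGF2 on the same strand, was listed at 0 TPM in every NC library and had a mean of 0.117 TPM in KD, with 0.35 TPM in its highest library, and reads shared with IGF2 cannot be told apart. H19, the imprinted RNA next to IGF2, lay between 0.15 and 1.28 TPM, with overlapping groups.

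The receptors were both lower in the KD means, but with unequal support. IGF2R (ENSG00000197081, chromosome 6 from 159969099 to 160113507, plus strand), whose promoter with the CACGTG copies is printed above, was 72.10, 71.37 and 72.82 TPM in NC replicates 1, 2 and 3 and 53.08, 53.90 and 51.00 TPM in KD replicates 1, 2 and 3. The libraries of each group lay close together, and the groups were far apart. The mean changed from 72.1 ± 0.725 to 52.7 ± 1.49 TPM (SD, n = 3 each), a ratio of 0.730, and on the log2(TPM + 1) scale IGF2R fell by 0.45 (standard error 0.0304, limma adjusted p = 0.000135).

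IGF1R (ENSG00000140443, chromosome 15 from 98648539 to 98964530, plus strand), the signalling receptor, was 5.51, 6.25 and 5.45 TPM in NC replicates 1, 2 and 3 and 5.31, 3.69 and 3.76 TPM in KD replicates 1, 2 and 3. KD replicate 1 was close to the controls, and the other two KD libraries were clearly lower. The means were 5.74 ± 0.446 and 4.25 ± 0.916 TPM (SD, n = 3 each), a ratio of 0.741 that was close to that of IGF2R. The log2 difference was -0.37 with an unadjusted 95% confidence interval from -0.69 to -0.05, and it did not pass after adjustment (limma adjusted p = 0.0708). Without KD replicate 1 the difference was -0.51 and passed (limma adjusted p = 0.0111). IGF2R transcripts were 12.6 ± 1.05 times as abundant as IGF1R transcripts in NC and 12.7 ± 2.42 times in KD (SD, n = 3 each), with overlapping groups.

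Among the tested binding proteins, IGFBP3 had the largest difference on the log2(TPM + 1) scale. IGFBP3 (ENSG00000146674, chromosome 7 from 45912245 to 45921874, minus strand) encodes the main carrier of IGF in blood, which is also made by many tissues. Its level was 48.28, 47.89 and 48.94 TPM in NC replicates 1, 2 and 3 and 97.03, 99.18 and 102.65 TPM in KD replicates 1, 2 and 3. The lowest KD library was far above the highest NC library. The mean rose from 48.4 ± 0.531 to 99.6 ± 2.84 TPM (SD, n = 3 each), a ratio of 2.06, and the log2 difference was 1.03 (standard error 0.0299, limma adjusted p = 5.43e-06). Only 2.99% of the tested genes had a larger absolute log2 difference, whereas for the other tested members this share was between 7.61% for IGFBP4 and 32.0% for IGFBP7.

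IGFBP4 (ENSG00000141753, chromosome 17 from 40443461 to 40457731, plus strand), a binding protein that restrains IGF action until it is cut, was 6.89, 6.51 and 6.12 TPM in NC replicates 1, 2 and 3 and 9.88, 10.11 and 11.47 TPM in KD replicates 1, 2 and 3. All KD libraries were above all NC libraries, and KD replicate 3 was the highest. The mean rose from 6.51 ± 0.385 to 10.5 ± 0.859 TPM (SD, n = 3 each). This was a ratio of 1.61 and a log2 difference of 0.61 (standard error 0.0753, limma adjusted p = 0.00134).

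IGFBP7 (ENSG00000163453, chromosome 4 from 57030773 to 57110385, minus strand) encodes a relative of the family that binds IGF only weakly and is deposited around vessels. It was 69.26, 71.82 and 72.29 TPM in NC replicates 1, 2 and 3 and 78.41, 86.99 and 92.55 TPM in KD replicates 1, 2 and 3. The KD libraries were all higher, but they spread more widely than the controls. The mean rose from 71.1 ± 1.63 to 86.0 ± 7.12 TPM (SD, n = 3 each), a ratio of 1.21, and the log2 difference of 0.27 passed (standard error 0.0604, limma adjusted p = 0.0155). The call was lost without NC replicate 1 (adjusted p = 0.0535) and without KD replicate 2 (adjusted p = 0.0506). The last 396 bases of IGFBP7 overlap POLR2B on the opposite strand, a gene of 58.2 TPM in NC and 46.6 TPM in KD, and the strand setting of the authors' counting is not stated.

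IGFBP6 (ENSG00000167779, chromosome 12 from 53097436 to 53102345, plus strand), a binding protein with a marked preference for IGF2, was the most abundant member and moved in the other direction. Its level was 437.01, 438.07 and 422.63 TPM in NC replicates 1, 2 and 3 and 306.92, 326.21 and 336.07 TPM in KD replicates 1, 2 and 3. All KD libraries were well below all NC libraries. The mean fell from 432.6 ± 8.62 to 323.1 ± 14.8 TPM (SD, n = 3 each), a ratio of 0.747, and on the log2 scale IGFBP6 fell by 0.42 (standard error 0.0361, limma adjusted p = 0.00032).

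**Figure D2:**
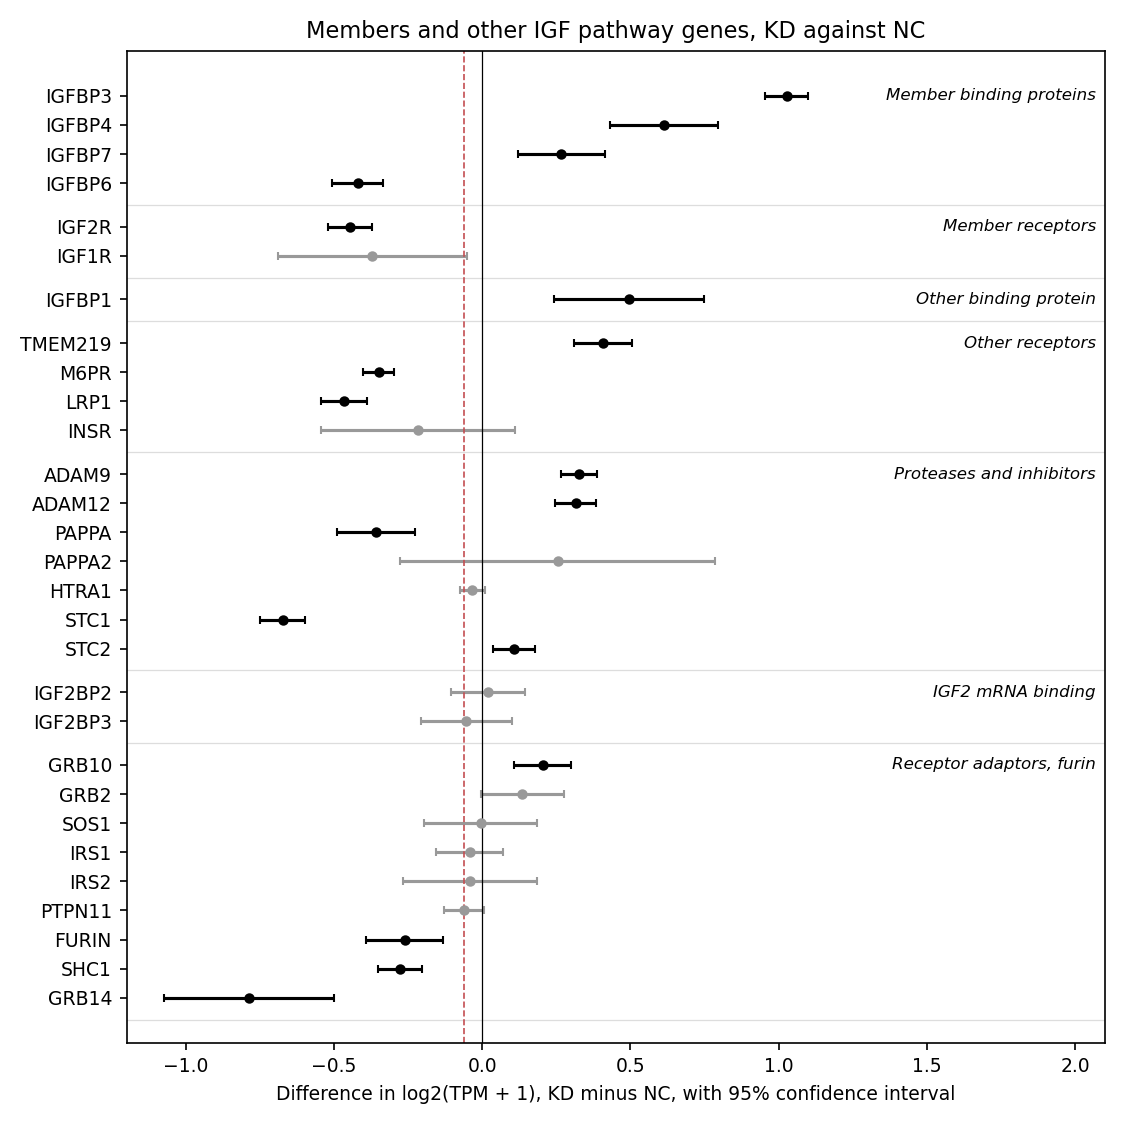
Difference in log2(TPM + 1), KD minus NC, for the 6 tested members and the 23 tested genes of the other IGF pathway lists. Points are limma estimates from 3 libraries against 3, bars are 95% confidence intervals without adjustment, black marks an adjusted p under 0.05, grey marks the rest, and the dashed line is the median of all 13722 tested genes (-0.06). IGFBP3 is the highest at 1.03, and GRB14 the lowest at -0.79.

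The remaining binding proteins were under 1 TPM. IGFBP5 (ENSG00000115461, chromosome 2 from 216672105 to 216695525, minus strand), which binds to extracellular matrix, was listed at 0.04, 0.04 and 0.01 TPM in NC replicates 1, 2 and 3 and at 0.67, 0.55 and 0.62 TPM in KD replicates 1, 2 and 3. The gene was close to the rounding step in every control and clearly above it in every KD library. The means were 0.03 ± 0.0173 and 0.613 ± 0.0603 TPM (SD, n = 3 each). In the limma fit with no lower limit the log2(TPM + 1) difference was 0.65 (standard error 0.0528, adjusted p = 0.00104), in a fit where 4.55% of 30412 genes rose past the same threshold. With a pseudocount of 0.1 in place of 1 it was 2.46, so the size of this rise depends on the scale.

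IGFBP2 (ENSG00000115457, chromosome 2 from 216632828 to 216664436, plus strand), a binding protein often raised in glioblastoma tissue, was listed at 0, 0.09 and 0 TPM in NC replicates 1, 2 and 3 and at 0.08, 0.16 and 0 TPM in KD replicates 1, 2 and 3. The groups overlapped, and the difference did not pass in the same fit (adjusted p = 0.594). IGFBP2 and IGFBP5 lie end to end on chromosome 2, 7668 bases apart with no annotated gene between them. Their levels were equal in the NC mean, at 0.03 TPM, and differed in KD, where every IGFBP5 value exceeded every IGFBP2 value.

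IGFBP1, which is not among the 9 genes, is the neighbour of IGFBP3 on chromosome 7, 18576 bases away with no annotated gene between them. It was 2.70, 2.73 and 2.90 TPM in NC replicates 1, 2 and 3 and 4.46, 3.69 and 4.88 TPM in KD replicates 1, 2 and 3. Its groups did not overlap either. The ratio of the means was 1.56 and the log2 difference 0.49 (limma adjusted p = 0.0123), so both genes of this pair were higher in KD. IGFALS, the subunit that joins IGFBP3 and IGF in the large complex of blood, was listed at 0 in all libraries, and IGFBPL1 did not exceed 0.02 TPM.

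The order of the levels differed between the groups. In NC it ran from IGFBP6 through IGF2R, IGFBP7, IGFBP3, IGFBP4 and IGF1R to the members under 1 TPM. IGF2R and IGFBP7 did not differ beyond their spread, and neither did IGFBP4 and IGF1R. In KD the order was IGFBP6, IGFBP3, IGFBP7, IGF2R, IGFBP4, IGF1R and IGFBP5, with no overlap between neighbours. IGFBP3 thus held the fourth place in NC and the second in KD, while IGF2R held the second and then the fourth.

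The make-up of the binding protein transcripts was compared as shares of the summed TPM of the 6 IGFBP members. The sum was 561.5, 564.4 and 550.0 TPM in NC replicates 1, 2 and 3 and 493.0, 523.2 and 543.4 TPM in KD replicates 1, 2 and 3. In TPM all KD sums were below all NC sums, with a mean change of -6.94%. Unlike the shares, the sums depend on how the libraries were scaled against each other. Median-of-ratios scaling moved the log2 difference of IGFBP6 from -0.42 to -0.35 and that of IGFBP3 from 1.03 to 1.10. Whether the sums stay apart under that scaling was not tested. The share of IGFBP6 was 77.4 ± 0.519% in NC and 62.2 ± 0.265% in KD, that of IGFBP3 8.66 ± 0.214% and 19.2 ± 0.439%, that of IGFBP7 12.7 ± 0.404% and 16.5 ± 0.571%, and that of IGFBP4 1.16 ± 0.058% and 2.02 ± 0.0899% (SD, n = 3 for every mean). The KD libraries differed in the sum more than in the shares of IGFBP6 and IGFBP3, since IGFBP6, IGFBP7 and IGFBP3 were each lowest in KD replicate 1 and highest in KD replicate 3. For each IGFBP6 transcript there were 0.112 ± 0.00345 of IGFBP3 in NC and 0.309 ± 0.00662 in KD (SD, n = 3 each). A ratio of this kind does not depend on how the libraries were scaled against each other.

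**Figure D3:**
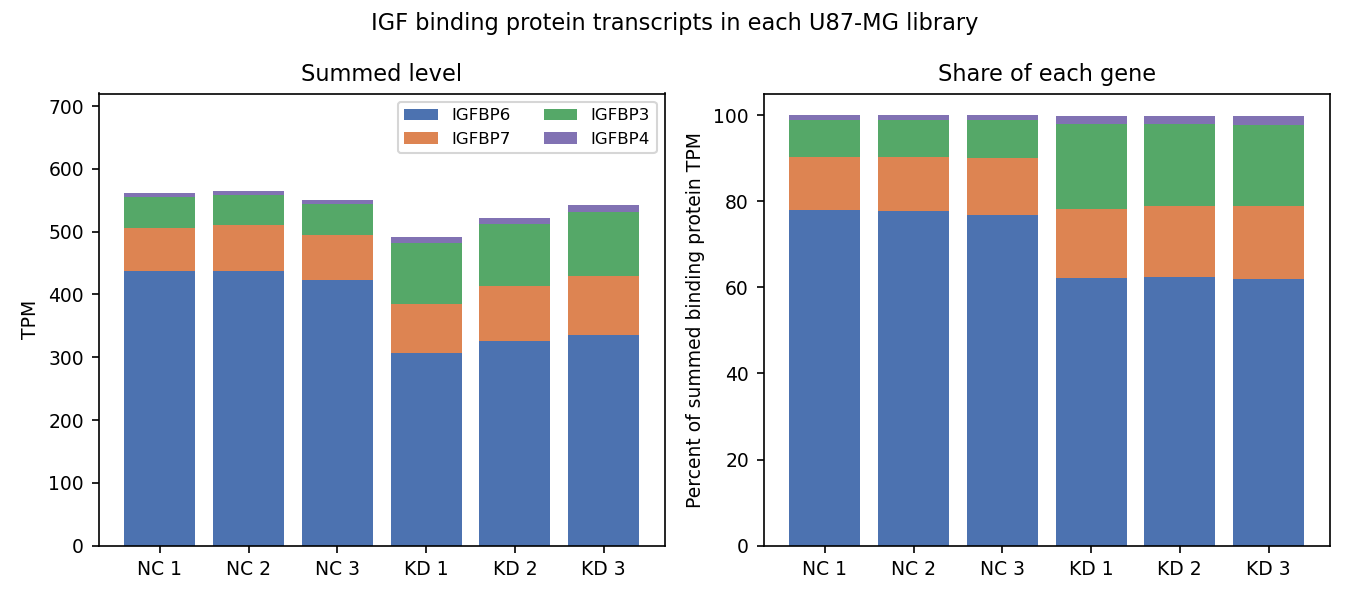
TPM of IGFBP6, IGFBP7, IGFBP3 and IGFBP4 stacked for each library (left), and the same genes as percentages of the summed TPM of the 6 IGFBP members (right). Each bar is 1 library, and IGFBP2 and IGFBP5 are too low to be drawn. IGFBP6 makes up 76.8% to 77.8% of the sum in NC and 61.9% to 62.3% in KD.

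Other genes of the IGF system were followed in lists of 34 genes, of which 23 were tested. Of these 7 fell, 6 rose and 10 did not pass, beside 24.0% lower and 12.1% higher among all tested genes, and the median log2 difference was -0.04. Among the receptors of these lists, M6PR, the other receptor for mannose 6-phosphate, fell from 181.7 ± 1.96 to 142.4 ± 1.98 TPM (SD, n = 3 each). LRP1, an uptake receptor that also binds IGFBP3, fell from 124.2 ± 2.63 to 89.6 ± 2.94 TPM (SD, n = 3 each). The log2 differences of M6PR and LRP1, -0.35 and -0.47 (limma adjusted p = 8.5e-05 and 0.000143), stand beside the -0.45 of IGF2R. TMEM219, described as a cell surface receptor for IGFBP3, rose from 69.9 ± 3.07 to 93.1 ± 2.78 TPM (SD, n = 3 each), which is 0.41 on the log2 scale (limma adjusted p = 0.000575). INSR, the insulin receptor, was 1.42 ± 0.173 TPM in NC and 1.08 ± 0.176 TPM in KD (SD, n = 3 each) and did not pass (limma adjusted p = 0.262).

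All 7 proteases of the binding proteins and their inhibitors were tested, of which 3 rose, 2 fell and 2 did not pass, where 36.1% of all tested genes passed in either direction (12.1% higher, 24.0% lower). PAPPA, the protease that cuts IGFBP4, was 11, 11.02 and 11.58 TPM in NC replicates 1, 2 and 3 and 8.98, 8.26 and 8.32 TPM in KD replicates 1, 2 and 3. It was lower in every KD library than in any control, with a log2 difference of -0.36 (limma adjusted p = 0.00321), whereas its substrate IGFBP4 was higher. STC1, an inhibitor of PAPPA, fell from 82.8 ± 0.702 to 51.6 ± 1.66 TPM (SD, n = 3 each), a log2 difference of -0.67 (limma adjusted p = 2.99e-05). STC2, the related inhibitor, differed by 0.11 (limma adjusted p = 0.0308), and this call held without NC replicate 1 but was lost when any other library was left out. ADAM9 and ADAM12, membrane proteases that can cut binding proteins, rose to ratios of 1.26 and 1.25 (limma adjusted p = 0.000202 and 0.000407). HTRA1 was abundant, at 291.7 ± 2.72 TPM in NC and 285.0 ± 2.41 TPM in KD (SD, n = 3 each), and did not pass (limma adjusted p = 0.189), and neither did PAPPA2, which lay near 1 TPM.

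Downstream of IGF1R, IRS1 and IRS2, the main docking proteins of the receptor, had log2 differences of -0.04 each and did not pass (limma adjusted p = 0.525 and 0.766), with unadjusted 95% confidence intervals from -0.16 to 0.07 and from -0.27 to 0.18. IRS4 was listed at 0. Of the other adaptors, SHC1 fell from 151.2 ± 3.56 to 124.5 ± 3.68 TPM and GRB14, an inhibitory adaptor of the insulin receptor, from 4.23 ± 0.754 to 2.01 ± 0.01 TPM (SD, n = 3 each; limma adjusted p = 0.000887 and 0.00314). GRB10, a related inhibitory adaptor of both receptors, moved the other way, with a log2 difference of 0.20 (limma adjusted p = 0.00894). SOS1 and PTPN11 did not pass. GRB2 had a log2 difference of 0.14 and did not pass either (limma adjusted p = 0.116), but passed without KD replicate 1 (0.20, adjusted p = 0.0157) and with median-of-ratios (adjusted p = 0.0379) or quantile scaling (adjusted p = 0.0397). FURIN, the protease that matures the IGF1R precursor, fell by 0.26 on the log2 scale (limma adjusted p = 0.011). The IGF2 messenger RNA binding proteins IGF2BP2 and IGF2BP3 were at 24.6 ± 1.39 and 44.0 ± 4.03 TPM in NC (SD, n = 3 each) and did not pass, and IGF2BP1 did not exceed 0.1 TPM.

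Of all tested genes, the 5 whose log2(TPM + 1) profile over the 6 libraries lay nearest to that of IGFBP3, by Euclidean distance after centring, were SYNPO, APLN, RARB, LDHA and SLC16A3, at distances from 0.0403 to 0.1. Their log2 differences were between 0.96 and 1.08. The likeness rests on 6 libraries in 2 groups and mainly reflects a difference of the same size.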

How the data were processed

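The authors deposited a table of TPM per gene for 6 U87-MG libraries. The submitters' processing notes name fastp, RSEM and the build GRCh38.p13, and the aligner and annotation are not given in the sources used here. The labels name an RNeasy and a SMARTer kit, the paper TRIzol and TruSeq. Columns were matched to samples by title. TPM is a share of a library, so abundant genes shift all others, and depth is unknown. Values carry 2 decimals. The members and lists were chosen with earlier results of these data known.

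Tests covered genes averaging at least 1 TPM over the 6 libraries. The scale was log2(TPM + 1) and the tool limma 3.58.1 under R 4.3.3 (lmFit, eBayes with trend, group as the only term). Alternatives were pseudocounts of 0.1 and 0.5, no limit on low values and a limit of 5 TPM, scaling by median of ratios or quantiles, mitochondrial transcripts left out, no trend, a term for the replicate number, and each library left out. On simulated data built on these genes, with 200 genes changed by 1 on the log2 scale, 191 were recovered with 12 false calls. The changed genes all averaged at least 5 TPM, so this recovery does not describe smaller differences or lower genes. All 9 members, CHRM3, every gene of the lists, overlapping or neighbouring genes, and the 5 nearest profiles to the tested member with the largest log2(TPM + 1) difference could be named. Gene coordinates are from GENCODE 29 (GRCh38). Of the 9 members, 7 had a RefSeq promoter window. Those of IGF2 and IGFBP7 are not shown.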

Additional observations from a re-analysis of the deposited data

How the results depend on the processing

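Under 15 alternatives, IGFBP3, IGFBP4, IGFBP6 and IGF2R kept their direction and their limma call, with log2 differences from 1.005 to 1.11, 0.55 to 0.68, -0.45 to -0.35 and -0.46 to -0.38. IGFBP5 kept its call in the 13 alternatives to its fit, from 0.62 to 2.46. Leaving out each library in turn gave 0.21 to 0.33 for IGFBP7, whose call was lost without NC replicate 1 and without KD replicate 2, and -0.51 to -0.30 for IGF1R, which passed without KD replicate 1 alone. Scaling by median of ratios or by quantiles shifted the median of all tested genes from -0.06 to 0.0024 and 0.0021, and the share of calls that were lower from 66.5% to 49.4% and 50%, with 2250 lower and 2306 higher genes and 2229 and 2233.

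The sign of 7 pathway genes that did not pass changed. With median-of-ratios scaling IGF2BP3 was 0.015, HTRA1 0.0367, IRS1 0.0249, IRS2 0.00797, SOS1 0.0557 and PTPN11 0.0063. With quantile normalization IGF2BP3 was 0.0344, HTRA1 0.0427, IRS1 0.0374, IRS2 0.0032 and SOS1 0.0528. Leaving out libraries gave -0.0060 to 0.0643 for IGF2BP2, -0.106 to 0.0172 for IGF2BP3 and -0.0701 to 0.0415 for SOS1. With the replicate number as a block, IGFBP3 was 1.03 (limma adjusted p = 0.000517) and IGF1R -0.37 (0.112), no member's call changed, STC2 was no longer past the threshold (adjusted p = 0.08), and 2638 genes were lower and 1369 higher. Deviations of same-numbered libraries correlated at -0.0198, 0.0341 and 0.0334, and those of other-numbered libraries at -0.0656 to 0.0336. Values this close to each other cannot decide whether the numbers pair the libraries. The 5 TPM limit removed IGF1R from testing. All alternatives were planned before these fits, although earlier results of these data were already known.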
